A study of Rattus norvegicus with 141 samples.

Results

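Keratin genes were taken as all rows of the 3 tissue count tables whose gene name is Krt followed by a number and at most 1 letter, which gave 50 of the 30562 gene rows in each table. The 50 rows carry 48 names, because Krt18 and Krt33b each have a second row with far fewer counts. By textbook class they were 5 simple epithelial keratins, 15 keratins of stratified epithelium, 25 keratins of hair and nail, 3 others and the 2 second rows. Krt14, Krt15, Krt16, Krt19, Krt31 and Krt6a were not analysed here.

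Polyadenylated RNA was sequenced from stomach, duodenum and liver of adult wild-type Sprague-Dawley rats on standard chow. Animals of both sexes received microplastics at 50 mg/kg (high), at 5 mg/kg (low), or vehicle alone. The sources used here name neither polymer nor particle size nor length of exposure. Each combination of tissue, sex and dose had 8 libraries, except 7 duodenum vehicle females and 6 liver high-dose females, 141 libraries in all. Several frozen pieces of each organ were ground together, per the labels' protocols, so a stomach library can hold any mixture of squamous forestomach and glandular stomach. The labels do not say which libraries come from separate animals, and p-values measure only the spread between these samples. Hepatocyte (Alb), gastric (Gkn2, Muc5ac) and intestinal (Vil1, Mttp) markers were abundant in the organs so labelled. Totals per library ranged between 6153368 and 23716967 estimated counts in liver, between 4947825 and 23940175 in stomach, and between 5470039 and 25503801 in duodenum. The share of counts taken by ribosomal protein genes moved with dose in the gut. Its medians at vehicle, 5 and 50 mg/kg were 2.64%, 2.78% and 3.81% in stomach and 3.67%, 4.3% and 5.61% in duodenum.

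Keratins form the intermediate filaments of epithelial cells, and each filament is built from pairs of 1 type I and 1 type II keratin. Simple epithelia, such as the lining of the intestine and the hepatocytes of the liver, use mainly Krt8 with Krt18, to which differentiated intestinal cells add Krt20 and ducts add Krt7. Stratified epithelia use Krt5 with Krt14 in the basal layer and exchange them above it for Krt1 with Krt10 where the surface cornifies, or for Krt4 with Krt13 in moist linings. The rodent stomach has both kinds, since its forestomach is lined by a cornified squamous epithelium and its lower part by simple glandular epithelium.

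The genes lie in 2 clusters, the type II genes with Krt18 on chromosome 7 and the other type I genes on chromosome 10 in RefSeq's GRCr8 assembly, and all 48 names were found there. Some direct neighbours differed in their tissue pattern. Krt12, Krt20 and Krt23 follow each other with 0 annotated genes between them. In vehicle libraries Krt12 had a median of 0 CPM (counts scaled by the total of the library) in liver, 36.7 CPM in stomach and 0 CPM in duodenum. Krt20 had its highest median in duodenum at 988 CPM and Krt23 in stomach at 114 CPM. Krt79, between Krt4 and Krt78 on chromosome 7, had its highest median in liver at 22.7 CPM, while Krt4 and Krt78 were at 46.7 and 430 CPM in stomach.

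The 120 bases before the RefSeq start of those 3 neighbours are shown with those of Krt10 (cornified layer), Krt5 (basal layer) and Krt18 (simple epithelium), so that the proximal promoters of genes with different tissue patterns can be set side by side. They were picked after the levels had been seen. They run 5′ to 3′ on the strand of the gene. Krt12 (chr10:84874266-84874385), Krt20 (chr10:84890286-84890405), Krt23 (chr10:84946930-84947049), Krt10 (chr10:84839161-84839280) and Krt5 (chr7:134730570-134730689) are on the minus strand and Krt18 (chr7:135036048-135036167) on the plus strand of GRCr8. Capitals mark TATAA on the strand of the gene and CCAAT on either strand, and no TGANTCA or TTCNNNGAA lay in these stretches.
Krt12: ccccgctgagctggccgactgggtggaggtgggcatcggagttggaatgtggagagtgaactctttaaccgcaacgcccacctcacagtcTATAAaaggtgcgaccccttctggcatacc
Krt20: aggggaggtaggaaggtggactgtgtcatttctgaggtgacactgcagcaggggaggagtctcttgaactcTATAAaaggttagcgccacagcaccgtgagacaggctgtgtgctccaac
Krt23: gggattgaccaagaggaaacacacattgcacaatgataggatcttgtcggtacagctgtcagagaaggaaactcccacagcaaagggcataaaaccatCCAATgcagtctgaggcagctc
Krt10: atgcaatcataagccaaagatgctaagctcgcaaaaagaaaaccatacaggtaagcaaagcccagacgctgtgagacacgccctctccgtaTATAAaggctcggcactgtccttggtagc
Krt5: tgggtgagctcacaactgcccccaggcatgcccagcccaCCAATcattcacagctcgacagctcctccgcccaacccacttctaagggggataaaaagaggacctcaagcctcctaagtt
Krt18: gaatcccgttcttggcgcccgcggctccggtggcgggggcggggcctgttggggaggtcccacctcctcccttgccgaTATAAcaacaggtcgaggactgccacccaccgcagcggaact
TATAA began 30 bases before the start in Krt12, 49 in Krt20, 29 in Krt10 and 42 in Krt18, and these letters were not in the windows of Krt23 and Krt5, which held CCAAT 22 and 81 bases before the start. RefSeq promoters were matched for 38 of the 48 names. TATAA beginning 20 to 50 bases before the start was found in 17 of these 38 (44.7%) and in 3.53% of all 33469 promoters of the table. Anywhere in the 250 bases before the start it was found in 27 of 38 and in 16.7% of all. On both strands of the same 250 bases, CCAAT was in 19 of 38 keratin promoters and 34.0% of all, the AP-1 motif TGANTCA in 1 (Krt4) and 6.34%, and the STAT motif TTCNNNGAA in 3 (Krt24, Krt25, Krt40) and 7.67%. A match is a match of letters only.

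The tissues were compared first, in the 47 vehicle libraries. Among the keratins analysed, stratified ones made up most reads in stomach and few in the other organs, and simple keratins were found in all 3. Of the reads of stratified and simple keratins together, stratified ones took a median of 7.21% in liver (6.47 to 10%), 85.4% in stomach (70.5 to 97.2%) and 0.152% in duodenum (0.0855 to 0.691%). These are shares of reads and not of molecules, because the genes differ in length. They leave out Krt14, Krt15, Krt16, Krt19 and Krt6a, which were not analysed, so they are not shares of the whole classes. In liver most of the stratified reads were those of Krt79. Over the libraries of all doses, the squamous cell markers chosen without keratins had a median above 0 for 5 of 18 in liver, 18 in stomach and 8 in duodenum. In bulk tissue, fewer cells of a type and less RNA per cell cannot be told apart. All 50 keratins took a median of 0.0385% of a liver library, 1.16% of a stomach library and 0.366% of a duodenum library.

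In the joint edgeR fit of vehicle libraries 20 keratins passed the count filter, which asks for about 10 counts in enough libraries of a group. With adjusted p under 0.05 as a call, 19 of 20 were called in stomach against duodenum, beside 76.9% of all 16033 genes tested. In liver against stomach 19 of 20 were called, beside 82.8% of all genes, and in liver against duodenum 12 of 20, beside 82%. Keratins such as Krt5, Krt13 and Krt78 passed the filter through their stomach counts alone and so had to differ, and these counts describe the group without testing it.

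Krt1 and Krt10, the pair of the cornified layers, had medians of 0.206 and 2.88 CPM in liver, 4369 and 3584 CPM in stomach, and 0.835 and 2.75 CPM in duodenum. The lowest stomach libraries were at 1915 and 1698 CPM. No stomach library overlapped with one of the other organs. Stomach exceeded duodenum by 12.38 ± 0.49 log2 units for Krt1 (log2 change ± SE, edgeR quasi-likelihood test, adjusted p = 5.81e-26) and by 10.41 ± 0.35 for Krt10 (adjusted p = 1.32e-28). Krt1 passed the filter mainly through stomach, so its difference and p are a description and no test.

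Krt5, the type II keratin of basal cells, ranged from 132 to 361 CPM in stomach with a median of 169 CPM. Summed over libraries it had 6 counts in the 16 livers, 29606 in the 16 stomachs and 11 in the 15 duodenum libraries. Krt13 and Krt4, the pair of moist stratified linings, had stomach medians of 983 and 46.7 CPM. Krt4 spread much more than Krt13 there, from 12.9 to 375 CPM against 618 to 2065 CPM. Krt78 and Krt80, type II keratins of differentiating stratified epithelium, had stomach medians of 430 and 50.1 CPM. Krt80 stayed measurable in duodenum, at 0.921 to 2.56 CPM, whereas Krt78 had 24 counts there. Krt12, best known from the corneal epithelium, had 8 counts over the 16 vehicle livers, 16.9 to 91.5 CPM in stomach and 6 counts over the vehicle duodenum libraries. Stomach levels lay above duodenum in the fit, as a description of genes of which all but Krt80 passed the filter through stomach, by 11.29 ± 0.28 for Krt5, 11.61 ± 0.31 for Krt13, 11.61 ± 0.61 for Krt4, 11.96 ± 0.37 for Krt78, 5.26 ± 0.20 for Krt80 and 9.58 ± 0.30 for Krt12.

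Krt17, which epidermis makes after injury, had a stomach median of 10.2 CPM, with 1 male vehicle library at 104 CPM. It had 0 counts in the 16 vehicle livers and 13 in duodenum. Against the floor of 3 counts over those livers (0.0158 CPM), its pooled level of 18.5 CPM in stomach was at least 1170-fold higher. Krt76, a keratin of palate and gum, reached 1.35 to 21.9 CPM in stomach. Krt6c, of the injury-inducible Krt6 group, and Krt42 had stomach medians of 2.03 and 1.79 CPM. Krt76, Krt6c and Krt42 had at most 4, 6 and 9 counts in a vehicle duodenum library and passed the filter through stomach, so their differences over duodenum of 5.17 ± 0.48, 5.29 ± 0.51 and 3.91 ± 0.39 are a description and no test.

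**Figure D1:**
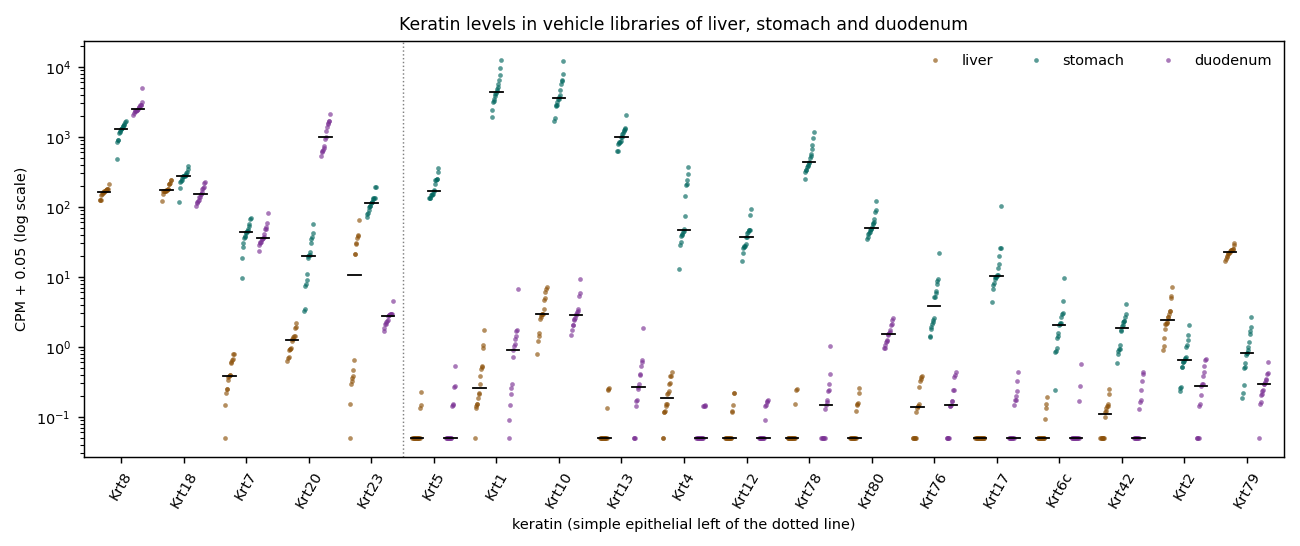
Level of 19 keratins in vehicle libraries of liver (16), stomach (16) and duodenum (15), as CPM + 0.05 on a log axis. Each point is a library and each bar the median. Krt8 and Krt18 are high in all 3 organs, Krt20 is highest in duodenum at a median of 988 CPM, Krt79 in liver at 22.7 CPM, and the stratified keratins from Krt5 to Krt42 lie highest in stomach.

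Among the simple keratins the 3 organs ranked differently gene by gene. Krt8, the type II partner of the simple pair, had a median of 164 CPM in liver (125 to 214), 1281 CPM in stomach (482 to 1702) and 2511 CPM in duodenum (2074 to 5035). Its type I partner Krt18 had 173 CPM in liver (121 to 245), 276 CPM in stomach (117 to 387) and 150 CPM in duodenum (103 to 224). So Krt8 was lower in stomach than in duodenum, by a log2 difference of -1.34 to -0.86 at 2 SE (adjusted p = 4.84e-11), while Krt18 was higher, by 0.87 ± 0.09 (adjusted p = 2.01e-11). In liver against duodenum the pair also went apart, with Krt8 at -2.96 ± 0.13 and Krt18 at 1.37 ± 0.09. RefSeq lists 7 further loci named as Krt18 copies, and the second Krt18 row (median 0.75 CPM in stomach) may share reads with the first, so the Krt18 values carry that uncertainty.

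Krt20, the type I keratin of mature intestinal cells, lay at 0.575 to 2.13 CPM in liver, 3.15 to 56.1 CPM in stomach and 531 to 2091 CPM in duodenum. The 3 organs did not overlap. Stomach against duodenum differed by -5.79 ± 0.31 (adjusted p = 3.97e-21) and liver against duodenum by -8.83 ± 0.37 (adjusted p = 1.18e-25). Krt7, a type II keratin of ducts and glands, had medians of 43 CPM in stomach and 36.2 CPM in duodenum, and was the 1 keratin of the 20 not called between them, at 0.08 ± 0.15 (adjusted p = 0.627), an interval of -0.22 to 0.39 at 2 SE. In liver, where bile ducts are its usual site, Krt7 reached at most 0.74 CPM in any vehicle library and was not tested for dose.

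Krt79, known in mouse from hair canal and sebaceous duct cells, and Krt2, a keratin of the upper epidermis, were higher in liver than in stomach and duodenum. Krt79 lay at 16.9 to 29.8 CPM in liver, 0.135 to 2.65 CPM in stomach and 0 to 0.557 CPM in duodenum, and liver exceeded stomach by 5.65 ± 0.19 (adjusted p = 3.95e-29) and duodenum by 7.63 ± 0.23 (adjusted p = 6.34e-31). Krt2 had medians of 2.4 CPM in liver, 0.596 CPM in stomach and 0.227 CPM in duodenum, and liver exceeded stomach by 3.01 ± 0.28 (adjusted p = 1.85e-13) and duodenum by 4.75 ± 0.33 (adjusted p = 1.15e-17). Both genes passed the filter through liver, so these differences and their p are a description and no test. Of the squamous markers 13 of 18 had a median of 0 over the livers of all doses, among them Loricrin, Ivl, Dsg3 and Sprr1a. The 25 hair keratins did not pass the filter in any organ. Their highest values in a single library were 0.344 CPM in liver (Krt72), 1.66 CPM in stomach (Krt72) and 2.64 CPM in duodenum (Krt90).

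In stomach 19 keratins passed the filter, 30 had counts below it and 1 had none. Against vehicle no keratin was called at 50 mg/kg (0 of 19 by edgeR, 2 at an unadjusted p under 0.05, 1 by DESeq2), beside 4.49% of all 15140 genes called. None was called at 5 mg/kg either (0 of 19, 4 at an unadjusted p under 0.05, 0 by DESeq2), beside 0% of all genes. These shares of all genes are edgeR's. That of DESeq2 is not given here, so its 1 call is not read as particular to keratins. The 2 doses share the vehicle libraries. The smallest p at 50 mg/kg was that of Krt12. At vehicle, 5 and 50 mg/kg its medians were 36.7, 33.1 and 67.5 CPM, with ranges of 16.9 to 91.5, 8.02 to 80.7 and 26.6 to 102 CPM. The groups overlapped, and the change against vehicle was 0.70 ± 0.22 (adjusted p = 0.0564). At 5 mg/kg the smallest p was that of Krt17, with medians of 10.2, 5.57 and 11.1 CPM over the 3 groups in dose order and a change against vehicle of -1.35 ± 0.35 (adjusted p = 0.538).

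Between the doses the keratins split by class without a call. At 50 against 5 mg/kg 0 of 19 were called by edgeR, beside 0.707% of all genes by edgeR. DESeq2 called 3. Its share of all genes is not given here, so the 3 are not read as particular to keratins. At an unadjusted p under 0.05 there were 14 of 19, in a comparison in which 1316 genes of 15140 passed that mark upward and 1026 downward. All 11 tested stratified keratins had a positive change, with a median of 0.58, whereas 4 of the 5 simple keratins had a negative one, with a median over the 5 of -0.26. The median over all genes was -0.01. Members can rise and fall together between libraries, as Krt1 and Krt10 did (Pearson r = 0.983), so these signs are not separate observations. Stratified members at an unadjusted p under 0.05 were Krt12 (0.85 ± 0.22, adjusted p = 0.0513), Krt13 (0.65 ± 0.19, adjusted p = 0.0803), Krt5 (0.65 ± 0.19, adjusted p = 0.0827), Krt78 (0.68 ± 0.22), Krt80 (0.51 ± 0.18), Krt1 (0.58 ± 0.23), Krt10 (0.55 ± 0.24) and Krt17 (0.82 ± 0.35), all from edgeR. Krt8, Krt18 and Krt7 had -0.26 ± 0.11, -0.22 ± 0.09 and -0.36 ± 0.16. Krt23, the exception among the simple keratins, had 0.41 ± 0.15.

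At vehicle, 5 and 50 mg/kg Krt5 had medians of 169, 138 and 206 CPM and Krt13 of 983, 703 and 921 CPM. Krt1 had 4369, 4017 and 5813 CPM, and Krt8 had 1281, 1325 and 1196 CPM. In each of them the 3 groups overlapped broadly, and the 5 mg/kg medians of Krt5, Krt13 and Krt1 were below those of vehicle. Krt4 ranged widely at each dose, from 12.9 to 375, 5.57 to 325 and 10.4 to 807 CPM, and Krt76 from 1.35 to 21.9, 0.377 to 36.6 and 0.801 to 10.2 CPM. The injury-inducible Krt17 ended at 104, 22.4 and 20.9 CPM, the first of these in 1 male vehicle library. Krt20 had medians of 20, 21.9 and 20.5 CPM and Krt7 of 43, 42.7 and 38.5 CPM, with ranges that overlapped nearly whole. The stratified share of stratified and simple keratin reads had medians of 85.4%, 82.4% and 89.5% in dose order. Its lowest libraries were at 70.5%, 52.1% and 80.4%.

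**Figure D2:**
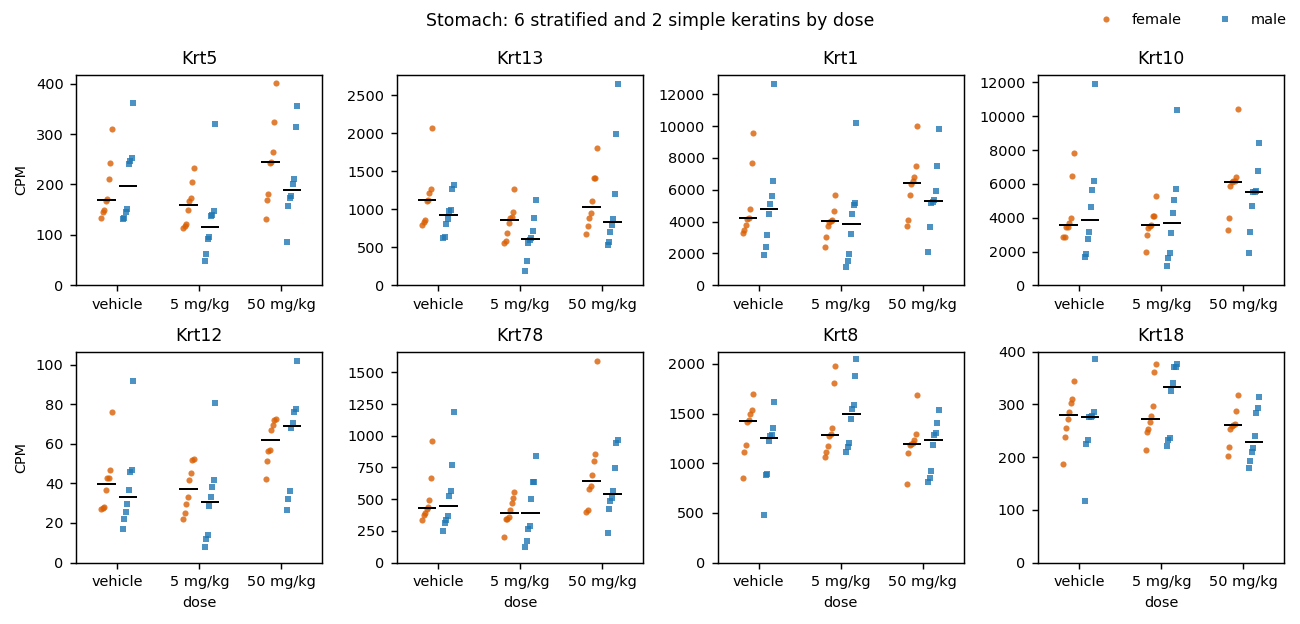
CPM of 8 keratins in the 48 stomach libraries by dose, circles for females and squares for males, with a bar at the median of each sex. Krt12 has medians of 36.7, 33.1 and 67.5 CPM over both sexes in dose order, and in every panel the doses overlap.

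The RNA level of squamous markers moved with these values. The summed level of 18 squamous markers other than keratins had medians of 3156, 2784 and 4326 CPM at vehicle, 5 and 50 mg/kg, with ranges of 1883 to 7703, 1229 to 5699 and 2035 to 9259 CPM. With the mean log2 level of those markers as a covariate, the changes at 50 against 5 mg/kg came to 0.12 for Krt12, 0.10 for Krt13 and 0.02 for Krt5. Under that covariate 16 of 19 changes were smaller in size, 14 of 19 were negative, and the median over the 19 was -0.09, against 0.41 without it. The markers are themselves genes of squamous epithelium, so the covariate cannot tell a change of tissue mixture from a change of expression. Which of them took place was not tested. Leaving out 1 male low-dose library (replicate 8), which had the highest Krt12 of its dose at 80.7 CPM, called 6 keratins at 50 against 5 mg/kg, with Krt12 at 0.99 (adjusted p = 0.00797) and Krt5 at 0.81 (adjusted p = 0.00746). The share of all genes called in that fit is not given here, so the 6 are not read as particular to keratins. Adding the ribosomal share to the fit called 7, with 318 of all genes called against 107 without it. The difference between the sexes of the 50 mg/kg change was not called for any keratin in the 3 organs (0 of 19, 0 of 8 and 0 of 7 by edgeR in stomach, duodenum and liver, with 2, 1 and 0 at an unadjusted p under 0.05 and 0 by DESeq2, beside 0% of all genes).

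**Figure D3:**
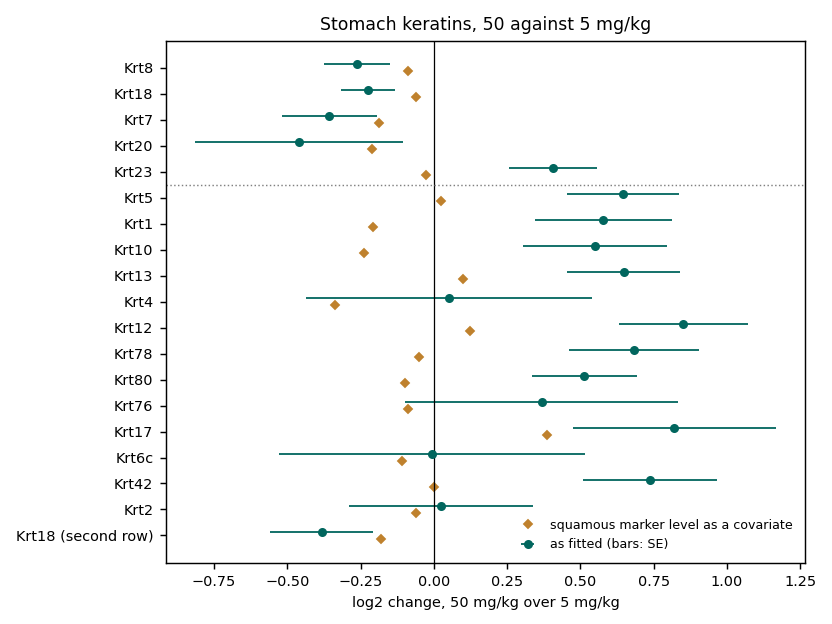
Log2 change of the 19 tested stomach keratins at 50 over 5 mg/kg, as fitted with its SE (circles) and with the level of squamous markers as a covariate (diamonds). Simple keratins stand above the dotted line. Krt12, at 0.85 as fitted, is at 0.12 with the covariate, and the diamonds of 14 keratins lie below 0.

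Other genes of the keratin system were read from lists of desmosome, hemidesmosome, cornified envelope, keratin-binding, epithelial factor and other filament genes. At 50 against 5 mg/kg 3 of 12 tested cornified envelope genes rose, namely Sprr2d (1.49 ± 0.34, adjusted p = 0.0278), Cnfn (0.79 ± 0.19, adjusted p = 0.0304) and Sprr3 (0.76 ± 0.20, adjusted p = 0.0454). Sprr proteins are cross-linked into the envelope of cornified cells, and Sprr3 and Cnfn are also among the squamous markers. The median of the list was 0.64, against -0.01 over all genes, of which 0.614% were called higher. Of 14 desmosome genes 1 rose, Perp (0.52 ± 0.13, adjusted p = 0.0395), a membrane protein of desmosomes. These 4 calls were lost with no batch term, without batch 3, in batch 1 or batch 2 alone, with 3 surrogate variables and with the squamous covariate, where 0 of all genes were called, against 107 in the fit as reported. At 50 mg/kg against vehicle Itga6, the integrin subunit of hemidesmosomes, fell by 0.24 ± 0.06 (1 of 6 hemidesmosome genes, adjusted p = 0.0216), beside 1.84% of all genes called lower. That call was lost with 3 surrogate variables and in batch 2 alone, where 0 of all genes were called against 680, and 4, 2 and 3 genes in all were called with no batch term, in batch 1 alone and with the ribosomal share. No cornified envelope, desmosome, keratin-binding or other filament gene was called in that comparison (0 of 12, 0 of 14, 0 of 8 and 0 of 13 by edgeR, with 4, 2, 0 and 4 at an unadjusted p under 0.05).

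In duodenum 8 keratins passed the filter, 5 simple and 3 stratified. At 50 mg/kg against vehicle 2 of the 8 fell, Krt1 and Krt80, beside 16.3% of all 15189 genes called in either direction and 7.58% called lower. Krt1 passed the filter mainly through vehicle libraries, so its place in that count is a description and no test. At 5 mg/kg none was called by edgeR (0 of 8, 2 at an unadjusted p under 0.05, 1 by DESeq2), beside 0% of all genes. These shares of all genes are edgeR's. That of DESeq2 is not given here, so its calls are not read as particular to keratins. No simple keratin was called at either dose by edgeR, while DESeq2 called Krt7 at 50 mg/kg and gave no adjusted p for Krt1 and Krt80. Krt20 had medians of 988, 843 and 834 CPM at vehicle, 5 and 50 mg/kg and Krt8 of 2511, 2520 and 2362 CPM. The 50 mg/kg changes were -0.41 ± 0.19 for Krt20 (adjusted p = 0.12), -0.18 ± 0.08 for Krt8 (adjusted p = 0.131), -0.23 ± 0.09 for Krt7 (adjusted p = 0.0696) and -0.02 ± 0.07 for Krt18 (adjusted p = 0.867). One male vehicle library (replicate 1) stood apart with 5035 CPM of Krt8, above the other 7 of its group at 2074 to 3126 CPM.

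Krt23 and Krt10, both low in duodenum, had medians of 2.68, 2.29 and 2.49 CPM and of 2.75, 2.33 and 2.92 CPM in dose order. Of the other rows 36 had counts below the filter, at most 2.64 CPM in a library, and 6 had none.

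Krt80 had medians of 1.47, 1.75 and 1.13 CPM at vehicle, 5 and 50 mg/kg, with ranges of 0.921 to 2.56, 0.85 to 3.84 and 0.787 to 1.74 CPM. The groups overlapped. It fell at 50 mg/kg by 0.40 ± 0.14 on the log2 scale (adjusted p = 0.0488), and 30 of the 47 fits that left out 1 library gave an adjusted p above 0.05, the highest 0.104. Of 11 other settings 1 called Krt80, the one with DESeq2's size factors, and the others gave adjusted p up to 1. Krt1 was a trace signal in duodenum, with 238 counts in all 47 libraries. It had 156 counts in 15 vehicle libraries, 28 in 16 low-dose and 54 in 16 high-dose libraries. Its highest value was 6.71 CPM in female vehicle replicate 5, and medians were 0.835, 0.0451 and 0.155 CPM in dose order. Since it passed the count filter mainly through the vehicle group, where it was high, its changes with dose describe it without testing it. Krt1 fell by 1.80 ± 0.57 at 50 mg/kg (adjusted p = 0.029), and came to -1.40 without female vehicle replicate 5 (adjusted p = 0.0758) and -1.70 without male high-dose replicate 5 (adjusted p = 0.0561). At 5 mg/kg it had -2.88 ± 0.66 (adjusted p = 0.199), and the call appeared without female low-dose replicate 7 (-2.92, adjusted p = 0.0386) or male low-dose replicate 7 (-3.67, adjusted p = 0.0261). Within batch 1 the 50 mg/kg change was -0.62 for Krt1 and -0.27 for Krt80, and within batch 2 it was -3.36 and -0.42.

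Some squamous markers, picked after their values were seen, had fewer counts in dosed duodenum libraries, and others did not. Sprr1a, a cornified envelope protein, had 28 counts in vehicle, 3 in low-dose and 5 in high-dose libraries, and Sprr3 had 22, 1 and 8. Loricrin, the main envelope protein, had 22, 15 and 10. In the same order Gsdma had 69, 77 and 90 counts, Dsg3 had 12, 13 and 12, and Anxa8 had 6323, 6593 and 6787. Female vehicle replicate 5 held the highest value of Sprr1a (1.34 CPM), Sprr3 (0.61 CPM), Loricrin (0.854 CPM) and Ivl (0.122 CPM) as well, while Serpinb5, Anxa8 and Dsc3 were highest in male vehicle replicate 1. Of 18 squamous markers 10 had a median of 0 over the duodenum libraries. Their summed level, mostly Anxa8, Col17a1 and Serpinb5, had medians of 64.2, 60.5 and 63.6 CPM in dose order. With the mean log2 level of the markers as a covariate, chosen after seeing the data, Krt1 came to -0.79 and Krt80 to -0.28 at 50 mg/kg, both without a call.

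**Figure D4:**
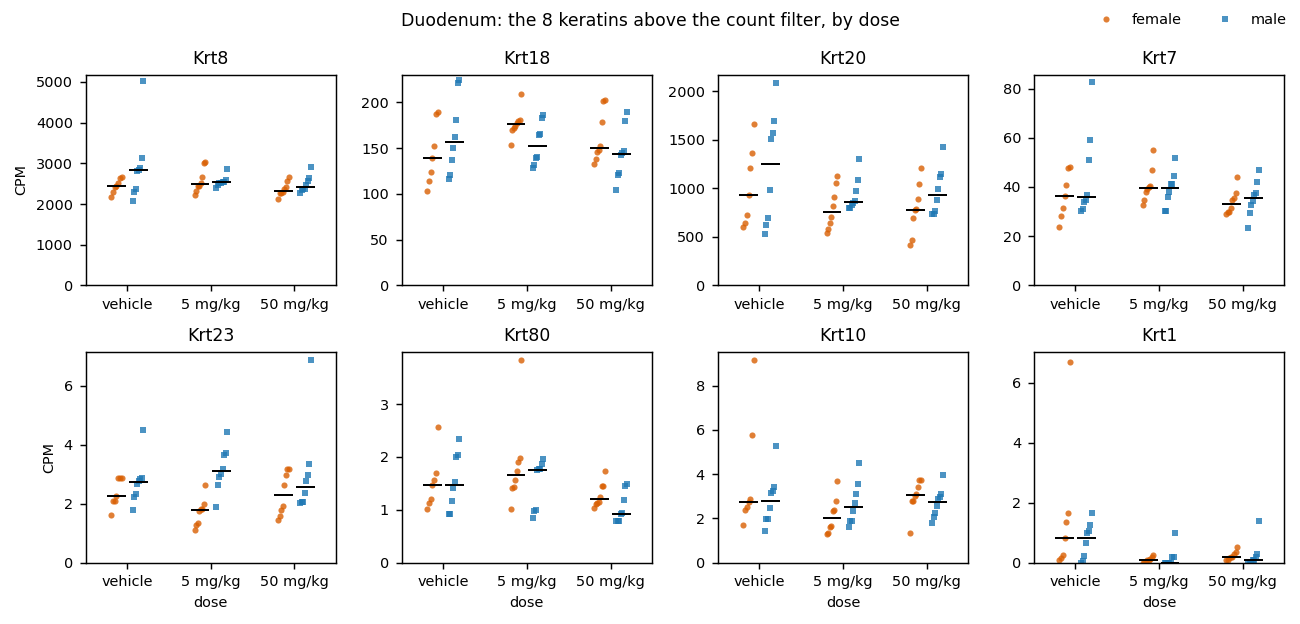
CPM of the 8 keratins above the count filter in the 47 duodenum libraries by dose, circles for females and squares for males, with a bar at the median of each sex. Krt1 reaches 6.71 CPM in 1 vehicle female, and the high-dose values of Krt80 end at 1.74 CPM, inside the vehicle range.

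Genes that anchor keratin filaments were among the calls in duodenum at 50 mg/kg. Of 10 desmosome genes 6 fell and 0 rose, beside 7.58% of all genes called lower. They were Jup (-0.38 ± 0.08, adjusted p = 0.0104), Dsg2 (-0.46 ± 0.12), Pkp3 (-0.29 ± 0.08), Dsp (-0.38 ± 0.12), Dsc2 (-0.28 ± 0.10) and Evpl (-0.46 ± 0.16), with adjusted p from 0.0135 to 0.0496 for the last 5. Dsp links keratin filaments to the desmosome plaque. Of 6 hemidesmosome genes 4 fell, the filament linkers Plec (-0.77 ± 0.20) and Dst (-0.50 ± 0.17) and the integrin subunits Itgb4 (-0.61 ± 0.16) and Itga6 (-0.19 ± 0.07). Keratin-binding genes went both ways, with Sfn (-1.01 ± 0.32), Fam83h (-0.37 ± 0.11) and Tchp (-0.32 ± 0.10) lower and Krtcap2 (0.29 ± 0.10) higher among 8. Klf4 (-0.57 ± 0.16) and Ovol1 (-0.26 ± 0.09) of 8 epithelial factors also fell. Of 13 other filament genes 1 fell, Lmna (-0.19 ± 0.07), a share near the 7.58% of all genes. The lists' medians were -0.28 for desmosome and -0.55 for hemidesmosome genes, against -0.02 over all genes. The ribosomal share moved over the same groups, as given above. With it in the fit 0 of all genes were called, against 2481 without it, and likewise 0 with the squamous covariate, with 3 surrogate variables and in batch 1 alone, so the calls of these lists were lost there. Of the keratins it left 0 of 8 called at 50 mg/kg, with Krt1 at -1.43 and Krt80 at -0.24.

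In liver 7 keratins passed the filter, 33 rows had counts below it, at most 1.67 CPM, and 10 had none. Neither dose called any of them against vehicle (0 of 7 by edgeR at each dose, 0 at an unadjusted p under 0.05, 0 by DESeq2), beside 0% of all 13130 genes. Krt8 had medians of 164, 175 and 169 CPM at vehicle, 5 and 50 mg/kg, Krt18 of 173, 190 and 175 CPM, and Krt79 of 22.7, 22.2 and 23.4 CPM. The 50 mg/kg changes were 0.02 ± 0.09, -0.07 ± 0.07 and -0.05 ± 0.08, with intervals at 2 SE of -0.15 to 0.19 for Krt8, -0.22 to 0.08 for Krt18 and -0.21 to 0.12 for Krt79. Of the low ones, Krt2 had medians of 2.4, 3.21 and 3.18 CPM in dose order, Krt10 of 2.88, 2.04 and 2.68 CPM and Krt20 of 1.2, 1.33 and 1.2 CPM.

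Sex separated 1 liver keratin completely. Krt23, a type I keratin, was measured in every female liver and at or near 0 in every male liver. Female vehicle livers ranged from 20.8 to 64.2 CPM with a median of 32.9 CPM, against 0 to 0.588 CPM with a median of 0.292 CPM in male vehicle livers. At 5 mg/kg females ranged from 12 to 76.1 CPM and males from 0 to 0.373 CPM. At 50 mg/kg 6 females ranged from 18.6 to 49.2 CPM and 8 males from 0 to 0.281 CPM. The sexes did not overlap at any dose. In vehicle livers the difference of females over males was 7.13 ± 0.39 log2 units (edgeR, adjusted p = 7.16e-19), 7.50 within batch 1 and 7.08 within batch 2. It was 7.90 ± 0.42 at 5 mg/kg (beside 24.3% of all genes called) and 7.90 ± 0.42 at 50 mg/kg. Krt23 was 1 of 7 keratins called between the sexes in vehicle livers, beside 22.8% of all genes, and it passed the count filter through the females alone, since no male vehicle library had more than 7 counts. This comparison was added after its values had been seen, so the difference of Krt23 and its p are a description and no test.

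No sex difference of Krt23 was called in the gut. In stomach it was 0.26 ± 0.21 (vehicle females over males, adjusted p = 0.911) and in duodenum -0.19 ± 0.23 (adjusted p = 0.997), with stomach levels of 71.2 to 194 CPM in both sexes together. At 2 SE these lie between -0.17 and 0.68 in stomach and between -0.65 and 0.27 in duodenum, against 6.34 to 7.92 in liver. Dose called no change of liver Krt23, with -0.64 ± 0.37 at 50 mg/kg and -0.46 ± 0.37 at 5 mg/kg over both sexes (adjusted p = 1 for both). The difference between the sexes of the 50 mg/kg change was 0.77 ± 0.73 (adjusted p = 0.997). Of its neighbours, Krt20 had a sex difference of -0.33 ± 0.34 in vehicle livers (adjusted p = 0.503) and Krt12 had too few counts to test.

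Female livers also differed in marker content. The summed level of pancreatic acinar genes ranged from 11.2 to 320 CPM in the 22 female livers and from 0.0938 to 2.51 CPM in the 24 male livers. The female liver lowest in acinar transcripts, at 11.2 CPM, had 35.2 CPM of Krt23, and the highest, at 320 CPM, had 64.2 CPM. In the 5 duodenum libraries highest in acinar transcripts, at 19000 to 53000 CPM, Krt23 lay at 1.44 to 1.97 CPM. Bile duct markers ran the other way, with summed levels of 39.3 to 63.0 CPM in females and 54.9 to 83.1 CPM in males. The part of acinar and bile duct content in the Krt23 difference was not tested.

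Krt18 was higher in females among high-dose livers. These females ranged from 173 to 257 CPM with a median of 225 CPM, against 121 to 212 CPM with a median of 142 CPM in males. The difference was 0.43 ± 0.11 (adjusted p = 0.00286), beside 15.6% of all genes called at that dose. In vehicle livers it was 0.17 ± 0.10 (adjusted p = 0.213) and at 5 mg/kg 0.20 ± 0.10 (adjusted p = 0.138). The test of the change itself, females minus males at 50 mg/kg against vehicle, gave 0.26 ± 0.15 (adjusted p = 0.997). Krt8, its partner, had 0.23 ± 0.12 at 50 mg/kg (adjusted p = 0.25). In stomach and duodenum no keratin was called between vehicle females and males (0 of 19 and 0 of 8 by edgeR, beside 0.172% and 0.079% of all genes, with 3 and 1 at an unadjusted p under 0.05 and 0 and 0 by DESeq2).

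**Figure D5:**
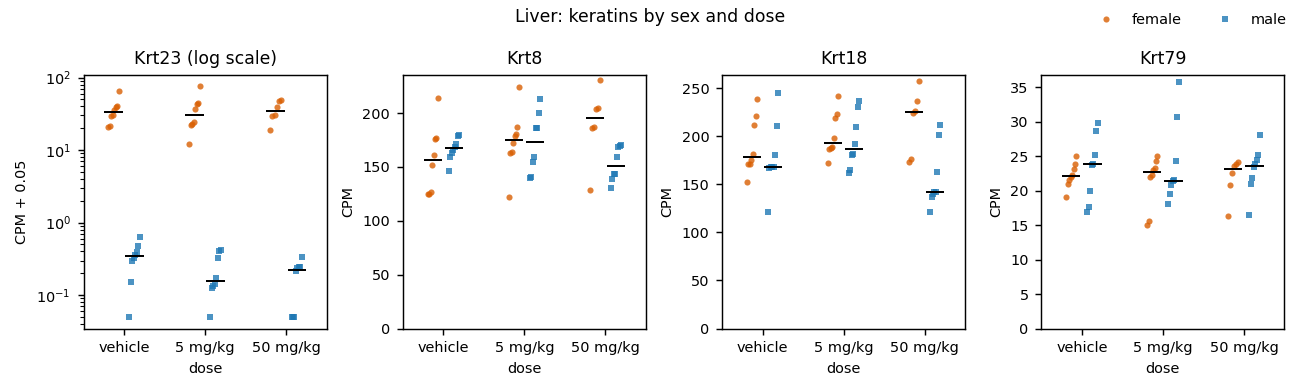
CPM of 4 liver keratins by sex and dose, circles for females and squares for males, with a bar at the median. Krt23 is drawn as CPM + 0.05 on a log axis, where every female lies above 10 CPM and every male below 1 CPM, while the sexes overlap for Krt8, Krt18 and Krt79.

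Keratins that pair in filaments were followed across the libraries of each organ, as log2(CPM + 1) over both sexes and all doses. In stomach Krt1 and Krt10 moved closely together (Pearson r = 0.983, Spearman rho = 0.98, n = 48 libraries, permutation p = 1e-05 for each, the smallest that 1e+05 resamples give). Krt8 and Krt18 had r = 0.914 and rho = 0.885 (permutation p = 1e-05 each), whereas Krt4 and Krt13 had r = 0.572 and rho = 0.528 (permutation p = 3e-05 and 0.00013). Without the 2 libraries farthest from the median these were 0.98, 0.877 and 0.429. Within batches 1 and 2 they were 0.971 and 0.987, 0.831 and 0.929, and 0.54 and 0.569. In liver Krt8 and Krt18 had r = 0.681 and rho = 0.724 (n = 46, permutation p = 1e-05 each), with 0.759 and 0.663 within batches and 0.666 without the 2 farthest libraries.

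In duodenum, the organ highest in Krt8, the correlation of Krt8 with Krt18 was weak. Krt8 with Krt20, the other abundant type I keratin there, was not computed, and Krt19 was not analysed. Krt8 varied less between libraries there than in stomach, which can lower r. Krt8 and Krt18 had r = 0.319 (n = 47, permutation p = 0.0253) and rho = 0.187 (permutation p = 0.206), and r was 0.0879 without the 2 farthest libraries, 0.121 within batch 1 and 0.407 within batch 2, so that the relation rested on those 2. Krt1 and Krt10, both at trace level there, had r = 0.666 and rho = 0.513 (permutation p = 1e-05 and 0.00026), with 0.611 and 0.737 within batches. In total 6 relations were computed, and the adjusted p was 3.6e-05 or less for all r but that of the duodenal Krt8 and Krt18 (0.0253), and 0.000312 or less for all rho but the same pair (0.206). Both members of a pair are read from the same library, and so share its depth and its mixture of cells.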

How the data were processed

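The authors deposited, for each organ, tables of estimated counts per gene and per transcript, not scaled between libraries. Per the submitters' processing notes the build was mRatBN7.2 and the tools included Salmon 1.10.3, STAR 2.7.11b, cutadapt 4.9, Trim Galore 0.6.10, UMI-tools 1.1.5, MultiQC 1.28 and FastQC 0.12.1. The sources used here do not give their roles, the annotation or the use of strand, so reads of near-copies and antisense genes cannot be told apart.

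The gene-level estimated counts were rounded, which moved a library total by at most 0.00064%, filtered (edgeR 4.0.16 filterByExpr, minimum 10, total 15), scaled by TMM and fitted with edgeR's quasi-likelihood test in R 4.3.3. Each organ had a term for each sex by dose group and for the labelled batch (1 to 3), and p was adjusted over all genes by Benjamini-Hochberg. A call is an adjusted p under 0.05. The tissue fit used vehicle libraries with tissue by sex groups and batch. SE is the log2 change divided by the square root of F, and intervals are 2 SE. CPM uses library totals and corrects for no length, so levels of different genes are not compared. Correlations used 1e+05 permutations (scipy 1.17.1). The fits were run on simulated data with independent genes at a fixed spread, without batch effects or varying tissue mixture. That run does not show how the fits perform on libraries such as these. Alternatives were DESeq2 1.42.0, its size factors, no filter, no batch term, a replicate block, only the groups compared, single batches, 3 surrogate variables (sva 3.50.0), ribosomal and squamous covariates, and leaving out each library.

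All members above the filter are named, and other genes of the lists where called. One result on a gene of these lists is not reported here. Members and lists were chosen with earlier results of these data known. The comparison of females with males and the squamous covariate in duodenum were added after values had been seen. Promoters are RefSeq's (GRCr8).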

Additional observations from a re-analysis of the deposited data

Results flagged for a closer look

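Within each group of sex and dose, 204 sets of 6 to 8 libraries were examined for 1 library far from the others of its group on the scale of log2(CPM + 1), and 17 were found. Chance alone flags about 1 in 20, which is 10.2 of 204, beside which the 17 should be read. They were 17 different libraries with 1 keratin each.

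In stomach, female vehicle replicate 7 had 9.61 CPM of Krt6c (others 0.896 to 2.87), female vehicle replicate 2 had 18.7 CPM of Krt7 (others 42.8 to 65.9) and female high-dose replicate 2 had 20.02 CPM of Krt7 (others 32.6 to 48.0). Male vehicle replicate 6, at 117 CPM of Krt18, lay below the others at 225 to 387 CPM. Male high-dose replicate 2 had 57.3 CPM of Krt23 (others 116 to 200) and male high-dose replicate 1 had 3.05 CPM of Krt2 (others 0 to 0.866). Female low-dose replicate 1 had 36.6 CPM of Krt76 (others 0.471 to 4.77), and female low-dose replicate 3 had 202 CPM of Krt78 (others 344 to 555). Female high-dose replicate 1 had 119 CPM of Krt80 (others 54.0 to 76.6).

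In duodenum, male vehicle replicate 1 had 5035 CPM of Krt8 (others 2074 to 3126) and male low-dose replicate 6 had 2855 CPM (others 2393 to 2593). Male high-dose replicate 5 had 6.87 CPM of Krt23 (others 2.03 to 3.34). Krt1 stood out in male high-dose replicate 6 at 1.40 CPM (others 0 to 0.296) and in male low-dose replicate 7 at 0.982 CPM (others 0 to 0.198). Female high-dose replicate 1 had 1.34 CPM of Krt10 (others 2.79 to 3.73), and female low-dose replicate 7 had 3.84 CPM of Krt80 (others 1.01 to 1.97). In liver, female high-dose replicate 1 had 129 CPM of Krt8 (others 186 to 230).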

How the results depend on the processing

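Between organs, the counts of called keratins stayed within 1.5 times under each alternative run, and Krt23 remained called between female and male livers, at 6.86 to 7.71. Krt23 passed the liver filter through the females alone, so this call is a description and no test. Krt13 in liver against duodenum was no longer called with libraries of all doses (-0.775). In stomach at 50 mg/kg against vehicle, DESeq2 and the replicate block each called 1 keratin (Krt12) against 0. At 50 against 5 mg/kg DESeq2 called 3, the replicate block 3 and the ribosomal covariate 7. Batch 1 alone called 1 (Krt20) for the sex by dose difference. In duodenum at 50 mg/kg 2 were called. DESeq2 (Krt7, with adjusted p not given for Krt1 and Krt80), no filter, no batch term, the replicate block, batch 2 alone and leaving out batch 3 called 1 each, Krt1 in the last 5 and Krt80 in none of them. Only the groups compared, batch 1 alone, 3 surrogate variables, the ribosomal and the squamous covariate called 0. At 5 mg/kg DESeq2, batch 2 alone and leaving out batch 3 called 1 (Krt1) against 0. For most of these runs the share of all genes called is not given beside the count, so the counts are not read as particular to keratins. The causes were not tested.

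At 50 against 5 mg/kg in stomach 8 of 19 changes turned sign with the squamous covariate, Krt23 (-0.0277), Krt80 (-0.0986), Krt1 (-0.209), Krt10 (-0.239), Krt78 (-0.0511), Krt2 (-0.0607), Krt76 (-0.0895) and Krt4 (-0.338). Of the changes named, others that turned sign were, in batch 1 alone Krt8 (0.00101), in batch 2 alone Krt17 (-0.118) and with 3 surrogate variables Krt18 (0.00352). The duodenal correlation of Krt8 and Krt18 was 0.121 in batch 1, 0.407 in batch 2 and 0.0879 without the 2 farthest libraries.

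Leaving out 1 library gave 0 to 1 calls in stomach at 50 mg/kg against vehicle, 0 to 6 at 50 against 5 mg/kg, 0 to 2 in duodenum at 50 mg/kg and 0 to 1 at 5 mg/kg. Krt12 was called against vehicle without male high-dose replicates 2, 7 or 8, female high-dose 5, male low-dose 3, 4, 7 or 8, male vehicle 6 or female vehicle 2, and at 50 against 5 mg/kg in 12 of 48 such fits. Krt7 in duodenum was called without male vehicle 7 or female vehicle 6. This was not run for liver. Same-numbered libraries correlated from -0.513 to 0.653 with no group pair all above 0.1. Their means ran from -0.216 (male livers, 50 mg/kg against vehicle) to 0.2 (female duodenum, 5 mg/kg against vehicle). These values cannot exclude that some numbers pair samples. The main fits did not use the numbers as pairs, and the replicate block moved counts as given. Depth limits Krt1 in duodenum, with 238 counts in all.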
